A study of Brachypodium distachyon and Sorghum bicolor and Panicum virgatum with 44 samples.

Results

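The response of Brachypodium distachyon shoots to heat was measured by RNA-seq as the difference between 2 heat libraries and 2 control libraries, which are 4 of the 44 samples of the series and 4 of its 10 RNA-seq libraries. Plants of the Bd21 line were grown in soil at a constant 20 °C with 20 h of light and 4 h of dark. On day 21, at 10 h into the light period, heat plants were moved to 40 °C, and their above ground tissue was collected 12 h later. Control plants were of the same line and tissue, the hour of their collection is not given in the sources used here, and each group had 2 biological replicates. The other RNA-seq groups, also with 2 libraries each and 12 h of treatment, were cold (4 °C), drought (plants lifted from the soil and their roots dried) and submergence in tap water, and they are used here only to ask where heat differed from them. All genes of the files were included by their identifier, and of 34310 genes 23494 had enough reads to be tested. Genes were also joined by identifier to the deposited table of predicted miRNA target sites. The tissue is a mixture of all shoot cells, so fewer cells of a type and less RNA per cell cannot be told apart.

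When plant cells become too hot, proteins unfold and membranes become more fluid. Heat shock factors, the transcription factors that bind heat shock elements, then switch on genes for molecular chaperones, which hold or refold unfolded proteins. Small heat shock proteins hold them in a foldable state, HSP70 works with J proteins (the DnaJ domain), and HSP90 keeps signalling proteins in shape. Transcription of much of the growth and photosynthesis programme falls at the same time in many plants. MicroRNAs add another layer, since a plant miRNA pairs along nearly its whole length with an mRNA and guides Argonaute to cut it.

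The control libraries held 12368365 and 14327937 expected counts and the heat libraries 14640431 and 17978729, with from 26420 to 27401 genes above 0 in these 4 libraries. The replicates resembled each other more than the other group, with a correlation of log2 CPM (counts scaled by library size) across genes of 0.995 between the controls, 0.992 between the heat libraries and from 0.974 to 0.978 between heat and control. These correlations are over all 34310 genes of the files, including those with few or no reads, and genes are not independent. The only light-harvesting gene (chlorophyll a/b-binding domain) with an annotation, Bradi1g24870, had 3876 and 3850.4 TPM in the control libraries and 3492 and 3009 TPM in the heat libraries (adjusted p = 0.18), so the light-harvesting mRNA of green tissue was abundant in all 4 libraries.

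In heat, 1928 genes were higher and 2045 genes were lower than in control at a Benjamini-Hochberg adjusted p under 0.05 in edgeR's quasi-likelihood test, the source of every adjusted p given here. These are 8.21% and 8.7% of the genes tested. At least 2-fold changes, with a log2 fold change of 1 or more in size, were found for 1006 of the genes that rose (4.28% of the genes tested) and 1007 of those that fell (4.29%). The larger changes leaned upwards, since 59 genes rose and 29 fell by a log2 fold change of 4 or more. The heat and control libraries did not overlap at any of the genes called, but they also did not overlap at 65.9% of all genes tested. The split of the calls depends on the scaling, because with total library size in place of TMM 3249 genes were higher and 1396 lower, which is 69.9% higher calls against 48.5%, with the median gene shifted up by 0.16 on the log2 scale. Leaving out a library sets 1 library against 2, so calls are lost with the replication whichever library is removed. A lost call here and below therefore need not mean a changed effect. For example, the log2 fold change of Bradi1g07370 stayed between -0.89 and -0.81, whereas that of Bradi1g28750 ran from -0.82 to -0.31. The number of calls fell without each of the 4 libraries. It was 967 higher and 1025 lower without heat replicate 1, 577 and 643 without heat replicate 2, 549 and 798 without control replicate 1, and 297 and 416 without control replicate 2.

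**Figure D1:**
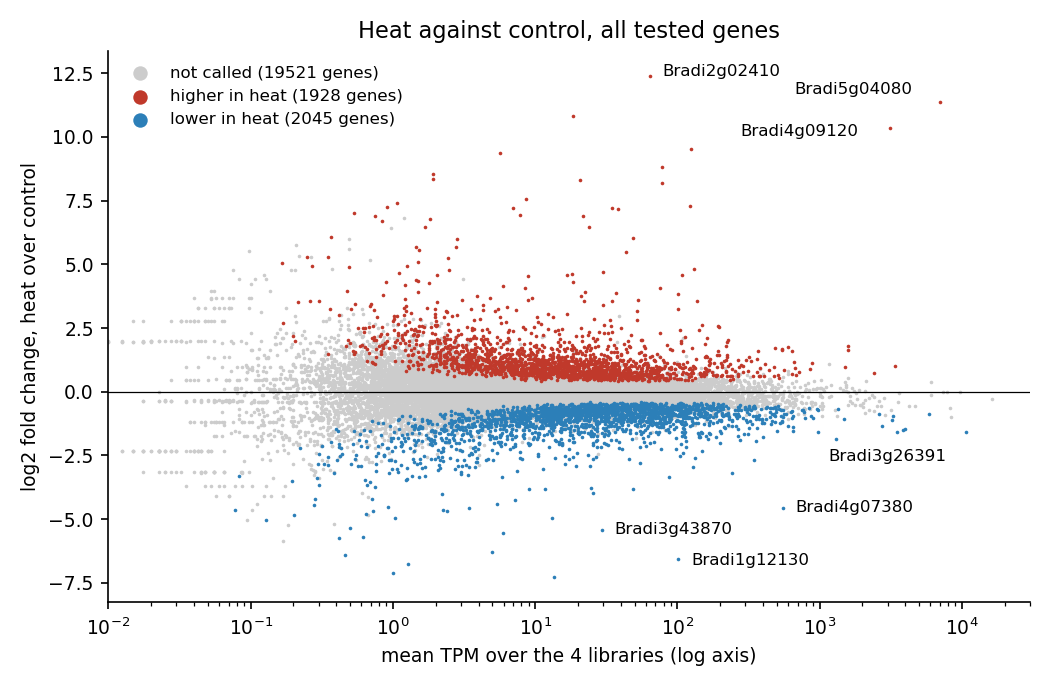
Log2 fold change of heat over control (vertical axis) against the mean TPM of the 2 control and 2 heat libraries (horizontal log axis), with 1 point for each of 23494 genes tested. Red points are the 1928 genes called higher and blue points the 2045 genes called lower; Bradi5g04080 and Bradi4g09120 combine a rise of over 10 log2 units with very high heat levels.

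Among genes changed at least 2-fold, those that rose had a lower median level in control than those that fell. The median level in control was 3.09 TPM (a level scaled for transcript length and depth) for those that rose and 16.7 TPM for those that fell, beside 10.4 TPM over all genes tested. In heat the medians were 10.4 TPM and 6.4 TPM. The risers made up 1.63% and 1.60% of all TPM in the control libraries and 6.41% and 7.80% in the heat libraries. The fallers went from 10.1% and 11.2% in control to 4.54% and 4.24% in heat. The genes were chosen by this same contrast, so these shares describe the calls and test nothing. The median transcript length was 1556 bases for the risers, 1853 bases for the fallers and 1807 bases over all genes tested.

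A few genes accounted for the most extreme part of the response. Among genes called whose mean was 10 CPM or more and whose heat libraries both lay above both controls, the rise was largest for Bradi2g02410, Bradi5g04080, Bradi4g09120 and Bradi2g23250. None of the 10 largest rises is paired with a gene name or domain in the sources used here, so they are given by identifier.

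Bradi5g04080 had 5.63 and 4.16 TPM in the control libraries and 10184 and 18063 TPM in the heat libraries (log2 fold change 11.37 ± 0.49 SE, adjusted p = 7.7e-06). It ranked 14797 and 15992 among the 34310 genes in the control libraries and 2 and 1 in the heat libraries. A gene with a low control level was thus among the most abundant mRNAs of the shoot after 12 h at 40 °C. Bradi4g09120 had 6.37 and 2.49 TPM in the control libraries and 4706 and 7861 TPM in the heat libraries (log2 fold change 10.36 ± 0.62 SE, adjusted p = 5.9e-05), and its rank in the heat libraries was 13 and 7. Both genes were higher in heat replicate 2 than in heat replicate 1. This was also so for 74 of the 110 genes that rose by a log2 fold change of at least 3, with a median ratio of 1.29 between the heat libraries, against 52.4% of all genes tested with a mean of at least 1 CPM.

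Bradi2g23250 had 0.36 and 0.26 TPM in the control libraries and 213 and 287 TPM in the heat libraries (log2 fold change 9.52 ± 0.44 SE, adjusted p = 1.0e-05). Bradi4g32941 had 1.35 and 1.43 TPM in the control libraries and 270.2 and 217 TPM in the heat libraries, with a log2 fold change of 7.29 and the smallest adjusted p of the genes named here, 2.5e-07. It differed from most of the large rises in being the lower of the pair in heat replicate 2. Bradi5g02037 went from 0.52 and 0.44 TPM to 128 and 184 TPM, Bradi3g58590 from 0.50 and 0.32 TPM to 62.7 and 75.8 TPM, and Bradi1g68440 from 0.39 and 0.55 TPM to 34.2 and 61.0 TPM, with log2 fold changes of 8.21, 7.22 and 6.48. In each of these genes the lower heat library was far above the higher control library.

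Bradi2g02410 had no read in either control library and 89.2 and 166.9 TPM in the heat libraries. Set against 3 counts in a control library, it was at least 139-fold higher in heat. Bradi2g05374 had 0 and 2 counts in the controls and 119 and 193 TPM in heat, a ratio of the pooled counts of 519 with an exact 95% interval from 143 to 4287. Bradi1g67040, with 3 counts in each control library and 43.2 and 108 TPM in heat, had a ratio of 154 (70.6 to 421). These intervals cover counting error only. The 10 largest rises were called with each library left out in turn, with adjusted p up to 0.032. The log2 fold change of Bradi4g09120 was 11.14 without control replicate 1. That of Bradi1g67040 was 6.26 without heat replicate 2, and fitted values of genes with a few control counts move with those counts, as for Bradi2g05374 (11.97 without control replicate 2). The expected counts of Bradi5g04080 and Bradi5g02037 were not whole in all 4 libraries, those of Bradi2g23250 and Bradi1g67040 in 3 and those of Bradi2g02410 in 2, as happens when reads match more than 1 gene, so the split between such genes is uncertain.

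**Figure D2:**
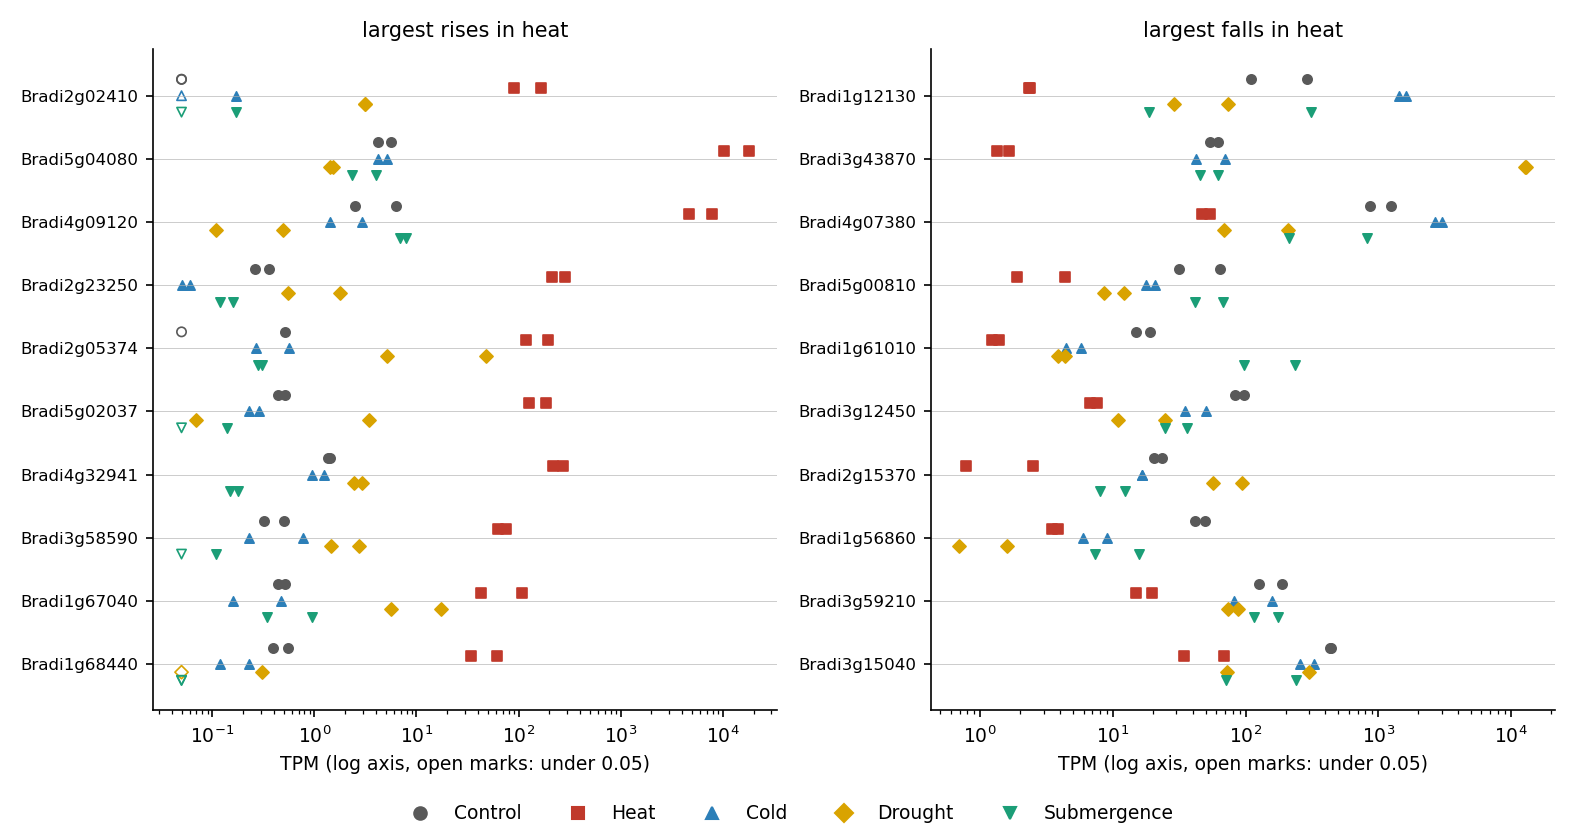
TPM (horizontal log axes) in each of the 10 RNA-seq libraries for the 10 largest rises (left) and 10 largest falls (right) in heat, with 2 marks for each condition and open marks for values under 0.05 TPM. Heat squares stand far to the right of the control circles on the left and to the left of them on the right; Bradi3g43870 is at 12695 and 13074 TPM in drought and 1.64 and 1.33 TPM in heat.

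A set of genes changed from near silence. Under 1 TPM in both control libraries and at least 10 TPM in both heat libraries were found for 12 of the genes called higher, limits that were chosen after the values were seen. Beside 7 of the genes above they included Bradi3g60100, Bradi2g02400, Bradi1g37080, Bradi1g53850 and Bradi1g12090. Bradi3g60100 had no read in the controls and 32.0 and 41.5 TPM in heat, at least 58.0-fold higher. Bradi2g02400, the next identifier to Bradi2g02410, had 0.21 and 0 TPM in control and 25.7 and 57.0 TPM in heat. Bradi1g37080 and Bradi1g53850 had 0 and 4 and 1 and 0 control counts and reached 36.1 and 50.7 TPM and 14.6 and 20.0 TPM in heat. Bradi1g12090 went from 0.66 and 0.49 TPM to 12.5 and 10.1 TPM, and it was also above control in drought, at 5.30 and 11.8 TPM. The reverse change, from at least 10 TPM in both controls to under 1 TPM in both heat libraries, was found for 2 genes called lower. They were Bradi2g16282, which went from 24.1 and 30.2 TPM to 0.19 and 0.15 TPM, and Bradi1g21416, which went from 13.0 and 10.1 TPM to 0.35 and 0.18 TPM. All 14 calls remained with each library left out.

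The falls were smaller than the rises. By the same rule the largest was that of Bradi1g12130, which had 109.9 and 292 TPM in the control libraries and 2.38 and 2.34 TPM in the heat libraries (log2 fold change -6.56 ± 1.24 SE, adjusted p = 0.0082). Its controls differed from each other by over 2-fold, and its call was lost without heat replicate 1, heat replicate 2 or control replicate 2, with a log2 fold change of -5.66 without control replicate 2 and adjusted p up to 0.068. The expected counts of Bradi1g12130 were not whole in 3 of the 4 libraries. Bradi3g43870 fell with less spread. It had 54.0 and 61.5 TPM in the control libraries and 1.64 and 1.33 TPM in the heat libraries (log2 fold change -5.41 ± 0.35 SE, adjusted p = 9.1e-05), and it was at 12695 and 13074 TPM in drought.

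Bradi4g07380 was the most abundant of the 10 largest falls, with 866 and 1255 TPM in the control libraries and 53.7 and 46.5 TPM in the heat libraries (log2 fold change -4.56 ± 0.68 SE, adjusted p = 0.0030). Bradi5g00810 had 31.3 and 64.0 TPM in the control libraries and 1.89 and 4.32 TPM in the heat libraries (log2 fold change -3.99 ± 0.49 SE, adjusted p = 0.0014), and its log2 fold change was -4.98 without heat replicate 2 and -3.35 without control replicate 2. The other falls had log2 fold changes from -3.83 for Bradi1g61010 to -3.21 for Bradi3g15040, and included Bradi3g12450 (from 83.8 and 96.9 TPM to 6.69 and 7.52 TPM), Bradi2g15370 (from 23.5 and 20.3 TPM to 0.78 and 2.51 TPM), Bradi1g56860 (from 41.5 and 49.5 TPM to 3.48 and 3.87 TPM) and Bradi3g59210 (from 125 and 189 TPM to 14.8 and 19.6 TPM). The heat libraries were below both controls in all of them, as the rule required. That of Bradi2g15370 was -5.00 without heat replicate 2 and -3.21 without heat replicate 1. The call of Bradi3g15040 (from 429 and 443 TPM to 34.2 and 69.0 TPM) was lost without each of the 4 libraries (adjusted p up to 0.10), and its log2 fold change was -3.89 without heat replicate 2. For the other 8 the call remained.

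The most abundant mRNAs also shifted. Of the genes that rose at least 2-fold, the highest heat levels after Bradi5g04080 and Bradi4g09120 were those of Bradi1g12787 (from 1947 and 2224 TPM to 4869 and 4449 TPM), Bradi4g10920 (from 635 and 664 TPM to 2020.2 and 2983 TPM), Bradi4g04220 (from 698 and 719.9 TPM to 2105 and 2792 TPM) and Bradi4g44400 (from 498 and 528.6 TPM to 1118 and 1385 TPM). The last 3 were called with each library left out, and Bradi1g12787 (adjusted p = 0.019) was not called without any 1 of the 4 libraries. Of the genes that fell at least 2-fold, Bradi3g26391 had the highest control level, with 14072 and 16990.3 TPM in the control libraries and 5624 and 5879 TPM in the heat libraries (log2 fold change -1.58 ± 0.32 SE, adjusted p = 0.011).

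Bradi4g37210 went from 5143 and 6230.2 TPM to 2142 and 2421 TPM, Bradi1g15290 from 5215 and 5816 TPM to 2141 and 2185 TPM, Bradi2g16290 from 5117 and 5024 TPM to 2071 and 1682 TPM and Bradi1g06890 from 4254 and 4276 TPM to 2044 and 2286 TPM. The sixth, Bradi1g25860, carries the Thi4 domain of the enzyme that makes the thiazole part of thiamine in plants and fungi. It had 2812 and 4780.4 TPM in the control libraries and 1973 and 1357 TPM in the heat libraries (log2 fold change -1.36 ± 0.41 SE, adjusted p = 0.047). Each of these 6 lost its call without at least 1 library. Bradi4g37210, Bradi1g15290, Bradi2g16290 and Bradi1g25860 lost it without each library, Bradi3g26391 without heat replicate 1, heat replicate 2 or control replicate 2, and Bradi1g06890 without heat replicate 1 or control replicate 2. The expected counts of Bradi3g26391, Bradi4g37210, Bradi1g15290 and Bradi2g16290 were not whole in all 4 libraries.

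Protein domains (Pfam entries) were available for 1123 genes, of which 1099 were tested. They come from a shortened list that holds genes with a PARE read (an RNA end sequenced at a predicted miRNA site), mostly from the first part of chromosome 1, so each family below is only partly covered. Of these 1099 genes 81 rose (7.37%) and 118 fell (10.7%), beside 8.21% and 8.7% of all genes tested. Their median log2 fold change was -0.05 beside 0.008 over all genes tested. Of the 77 tested members of the families listed here, 8 rose (10.4%) and 10 fell (13.0%), so these counts are also near the shares over all genes. Leaving out a library left 12 calls without heat replicate 1, 6 without heat replicate 2, 8 without control replicate 1 and 5 without control replicate 2, and with library size scaling 15 rose and 4 fell, so the lean of these families turned with the scaling. No gene of the small heat shock protein, HSP90, HSP100 or catalase families is among them.

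Of 18 chaperone and folding genes 2 rose and 2 fell, with a median log2 fold change of 0.16. These shares of 11.1% each way stand beside 8.21% and 8.7% of all genes tested, so the count is near the background. The 2 that rose were J proteins, the partners that bring substrates to HSP70. Bradi1g20140 had 12.3 and 8.70 TPM in the control libraries and 56.3 and 62.1 TPM in the heat libraries (log2 fold change 2.36 ± 0.28 SE, adjusted p = 0.0012), and Bradi1g27400 had 16.7 and 12.3 TPM in the control libraries and 26.2 and 24.7 TPM in the heat libraries (log2 fold change 0.67 ± 0.15 SE, adjusted p = 0.018). The other 6 J proteins had log2 fold changes from -0.21 to 0.38 and did not pass the test. One of the HSP70 genes fell, Bradi1g32770, from 31.6 and 30.0 TPM to 22.2 and 21.8 TPM (log2 fold change -0.64 ± 0.14 SE, adjusted p = 0.015). The other, Bradi1g03720, was more abundant, with 647 and 656 TPM in the control libraries and 756 and 864 TPM in the heat libraries (log2 fold change 0.17, adjusted p = 0.60).

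None of the 4 chaperonins, which fold proteins inside a ring, passed the test, and their log2 fold changes ran from -0.43 to 0.30. Among 4 peptidyl-prolyl isomerases, enzymes that speed a slow step of folding, Bradi1g27191 of the FKBP type fell (log2 fold change -0.45, adjusted p = 0.049). The most abundant member, Bradi1g34750, went from 215 and 207 TPM to 303 and 321 TPM (adjusted p = 0.066). The calls of Bradi1g27191 and Bradi1g32770 were lost without each of the 4 libraries and that of Bradi1g27400 without 3 of them (all but control replicate 1), while Bradi1g20140 was called without each. Expected counts of Bradi1g27191 and Bradi1g27400 were not whole in all 4 libraries.

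Of the 2 heat shock factor genes, Bradi1g05550 rose and Bradi1g01130 did not pass the test. Bradi1g05550 had 15.7 and 11.6 TPM in the control libraries and 40.5 and 38.0 TPM in the heat libraries (log2 fold change 1.38 ± 0.18 SE, adjusted p = 0.0016), and it was called with each library left out. Bradi1g01130 had 28.6 and 24.6 TPM in the control libraries and 27.8 and 28.6 TPM in the heat libraries (log2 fold change -0.06). The heat libraries of the first were more than 2-fold above its controls and those of the second overlapped its controls.

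The ubiquitin system marks damaged proteins for the proteasome. Bradi1g30247, with the ubiquitin domain, rose from 43.8 and 40.3 TPM to 74.7 and 61.4 TPM (log2 fold change 0.54 ± 0.13 SE, adjusted p = 0.020). Of 2 ubiquitin-conjugating enzymes, Bradi1g06090 fell (from 100.03 and 104 TPM to 70.4 and 72.6 TPM, adjusted p = 0.022) and Bradi1g46730 was at 92.1 and 79.1 TPM in the control libraries and 135 and 152 TPM in the heat libraries (adjusted p = 0.059). The 1 proteasome subunit, Bradi1g11830, had 91.5 and 96.2 TPM in the control libraries and 90.6 and 93.2 TPM in the heat libraries. The call of Bradi1g30247 and that of Bradi1g06090 were lost without each of the 4 libraries, and the counts of both were not whole in all 4. None of the 5 thioredoxins, the haem peroxidase or the 2 raffinose pathway genes passed the test.

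Of 4 growth genes 2 fell and none rose, beside 8.7% and 8.21% of all genes tested, and the other 2 had positive log2 fold changes, 0.33 and 0.62. Bradi1g25107, with the domain of cellulose synthases, the enzymes that spin the wall polymer, had 16.3 and 18.6 TPM in the control libraries and 4.99 and 5.66 TPM in the heat libraries (log2 fold change -1.88 ± 0.29 SE, adjusted p = 0.0035) and was called with each library left out. Of 2 core histone genes, Bradi1g25400 fell (from 123 and 134 TPM to 87.2 and 80.8 TPM, adjusted p = 0.029, lost without each library), whereas Bradi1g25390 was at 340.2 and 332 TPM in the control libraries and 472 and 455 TPM in the heat libraries (adjusted p = 0.22). The expansin-domain gene Bradi1g28130 went from 11.9 and 14.4 TPM to 23.1 and 21.7 TPM and did not pass the test (adjusted p = 0.058).

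Of 11 RNA-binding genes with the RNA recognition motif 3 were higher and 1 was lower, or 27.3% and 9.09% beside 8.21% and 8.7% of all genes tested. Bradi1g20360 had 14.8 and 11.9 TPM in the control libraries and 53.7 and 48.7 TPM in the heat libraries (log2 fold change 1.79 ± 0.19 SE, adjusted p = 7.6e-04). Bradi1g22160 rose from 7.39 and 8.53 TPM to 19.6 and 16.5 TPM (adjusted p = 0.0079), the third that rose had a log2 fold change of 0.66, and Bradi1g17510 fell from 89.3 and 84.9 TPM to 56.8 and 48.7 TPM (adjusted p = 0.0026). The other 7 had log2 fold changes from -0.21 to 0.23. Bradi1g22160 was not called without control replicate 1 or control replicate 2.

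Of 29 transcription factors of other families 1 rose and 4 fell, or 3.45% and 13.8% beside 8.21% and 8.7% of all genes tested. The riser was Bradi1g14467 of the NAC family, plant regulators of development and stress, with 3.90 and 3.73 TPM in the control libraries and 9.58 and 14.4 TPM in the heat libraries (log2 fold change 1.52 ± 0.30 SE, adjusted p = 0.0096). It was not called without heat replicate 2, control replicate 1 or control replicate 2. The MYB-domain genes that fell were Bradi1g07630 (from 74.9 and 99.9 TPM to 46.0 and 42.7 TPM, adjusted p = 0.0074) and Bradi1g36236 (from 12.9 and 13.2 TPM to 10.3 and 9.31 TPM, adjusted p = 0.042). The other fallers, of the AP2 and NF-YA families, hold miRNA sites and are described with those. Bradi1g07630 lost its call without heat replicate 2 or control replicate 2, and Bradi1g36236 without each library. The listed bZIP, SBP, GRAS and QLQ genes did not pass the test, whereas Bradi3g50930, a GRAS gene outside this list, fell (adjusted p = 0.017).

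**Figure D3:**
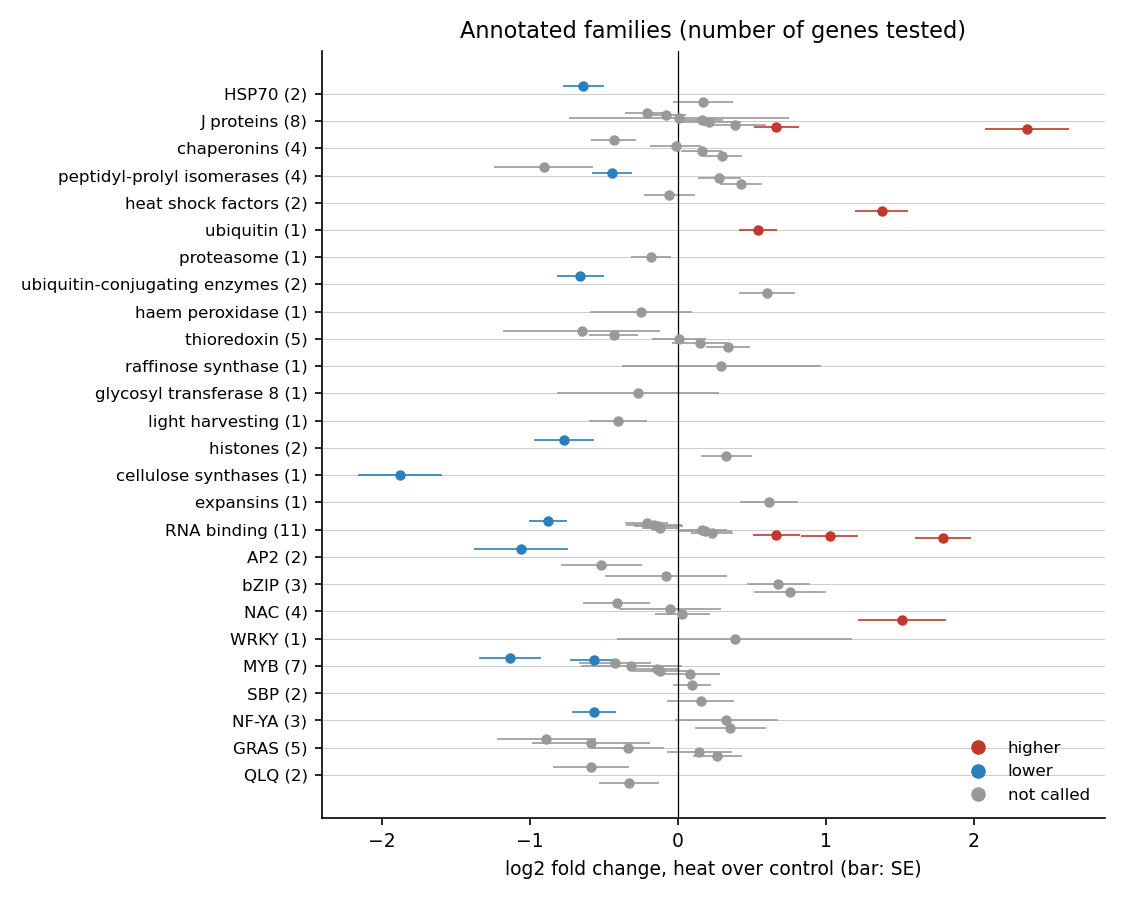
Log2 fold change of heat over control (horizontal axis, bars are SE) for each tested gene of the annotated families, with the number tested in brackets. Red points passed the test upwards, blue points downwards and grey points did not pass; most families straddle 0, with Bradi1g20140 of the J proteins at 2.36 and the cellulose synthase gene at -1.88 at the ends.

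Other genes with a domain entry were taken after their values were seen, as the 12 largest rises and 12 largest falls under the rule used above for all genes, plus a few singled out. Besides the genes above, the rises included 2 genes with the AN1 zinc finger, the domain of the stress-associated proteins of plants. Bradi1g36050 had 70.5 and 36.1 TPM in the control libraries and 262 and 412 TPM in the heat libraries (log2 fold change 2.53 ± 0.32 SE, adjusted p = 0.0014), and Bradi1g06036 had 24.1 and 14.8 TPM in the control libraries and 55.5 and 79.6 TPM in the heat libraries (log2 fold change 1.66 ± 0.26 SE, adjusted p = 0.0038). Their controls differed by up to about 2-fold within each pair but stayed below both heat libraries.

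Bradi1g30130, with the ATPase domain shared by HSP90, histidine kinases and DNA gyrase, rose from 260.0 and 226 TPM to 801 and 878 TPM (log2 fold change 1.64 ± 0.22 SE, adjusted p = 0.0018). Bradi1g02940, a calreticulin, the calcium-binding chaperone of the endoplasmic reticulum, rose from 520.2 and 469.7 TPM to 882 and 992 TPM (adjusted p = 0.027). Both were abundant before heat. The DnaJ central domain genes Bradi1g01507 (from 32.4 and 33.2 TPM to 74.3 and 74.6 TPM) and Bradi1g06340 (from 256 and 242 TPM to 512 and 435 TPM) also rose, with log2 fold changes of 1.03 and 0.77 and adjusted p of 0.0013 and 0.0089. Bradi1g02940 was called only without heat replicate 1 among the leave-outs, and Bradi1g06340 only without heat replicate 2.

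Bradi1g32990, with a phosphosulfolactate synthase domain, had 2.33 and 2.74 TPM in the control libraries and 41.7 and 43.4 TPM in the heat libraries (log2 fold change 3.91 ± 0.27 SE, adjusted p = 1.0e-04). Bradi1g32460, with a SUMO-like ubiquitin fold, rose from 100.1 and 89.4 TPM to 278 and 292 TPM (adjusted p = 0.0055), a call lost without control replicate 2. Its expected counts were not whole in all 4 libraries. Bradi1g18340, a copper/zinc superoxide dismutase, which removes superoxide, was also singled out after its values were seen. It rose from 374 and 371 TPM to 713 and 778 TPM (adjusted p = 0.0096) and was higher still in drought, at 1279.8 and 1488 TPM. It was not called without heat replicate 2, control replicate 1 or control replicate 2.

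Among the falls, Bradi1g17090, a nicotianamine synthase, which makes the metal chelator used to carry iron in plants, had 168.3 and 180.1 TPM in the control libraries and 37.2 and 29.9 TPM in the heat libraries (log2 fold change -2.53 ± 0.23 SE, adjusted p = 3.9e-04). Bradi1g01610, a plastocyanin-like copper protein, went from 52.0 and 51.2 TPM to 11.9 and 14.7 TPM and Bradi1g09537, a nucleotidyl transferase, from 406 and 442 TPM to 135 and 118 TPM, with log2 fold changes of -2.09 and -1.90. Bradi1g39167, with the domain of phosphoenolpyruvate carboxylase, which fixes bicarbonate onto phosphoenolpyruvate, fell from 472 and 395.8 TPM to 160.4 and 148 TPM (log2 fold change -1.65 ± 0.29 SE, adjusted p = 0.0058). These 4 calls remained with each library left out. Bradi1g16580, a fatty acid desaturase, the class of enzyme that adds double bonds to membrane lipids, fell from 289 and 326 TPM to 125 and 127 TPM (adjusted p = 0.038), a call lost without each library.

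Besides the Thi4 gene, the ThiC gene Bradi1g12550, whose product makes the pyrimidine part of thiamine, fell from 926 and 1072 TPM to 733 and 656 TPM (adjusted p = 0.039, lost without each library). It was lower still in cold (323 and 292 TPM), drought (369 and 286 TPM) and submergence (506 and 563 TPM). Heat was above cold and drought at this gene (log2 differences 0.70 and 0.73, adjusted p = 0.014 and 0.0060). The Thi4 gene was at 193 and 221 TPM in drought. The 5 ribosomal protein genes given here were singled out after their values were seen, and all 5 were called. Their directions therefore do not describe ribosomal protein genes as a family. Bradi1g18120 (S8e) rose from 95.0 and 107 TPM to 204 and 259.7 TPM (adjusted p = 0.0056). Bradi1g04130 (L17) fell from 800.5 and 849.9 TPM to 454 and 493 TPM (adjusted p = 0.015), and Bradi1g07370 (S9/S16) fell from 279 and 286 TPM to 181 and 168.1 TPM (adjusted p = 0.026). These 2 calls were lost without each library and that of Bradi1g18120 without control replicate 1. Bradi1g06220 (L23) fell from 322 and 425 TPM to 258 and 257 TPM (adjusted p = 0.023) and Bradi1g28750 (L44) from 111 and 154 TPM to 99.4 and 92.2 TPM (adjusted p = 0.049). The last 2 were lost without heat replicate 1, heat replicate 2 or control replicate 2, and their counts were not whole in all 4 libraries.

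To ask which changes set heat apart, heat was compared directly with each other stress. The contrast itself holds no control library, although the scaling and the estimate of the spread came from all 10 libraries. Heat differed from cold at 9923 genes (42.2%), from drought at 15885 (67.6%) and from submergence at 9178 (39.1%). Of the 1928 genes that rose in heat, 793 (41.1%) were also higher in heat than in each of the other 3 stresses, against 7.41% of all genes tested. Of the 2045 that fell, 592 (28.9%) were also lower than in each, against 7.1%. The heat libraries enter all these contrasts, so the overlap partly follows from them and is not a test.

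The 4 largest rises of this kind were far below heat in each other stress. Bradi5g04080 had 4.18 and 5.18 TPM in cold, 1.41 and 1.52 TPM in drought and 4.06 and 2.32 TPM in submergence, and heat was above them by 11.16, 12.87 and 12.22 on the log2 scale (adjusted p = 9.1e-07, 3.1e-07 and 4.0e-06). Bradi4g09120 had 2.96 and 1.43 TPM in cold, 0.11 and 0.49 TPM in drought and 6.96 and 7.95 TPM in submergence, with heat higher by 11.06, 13.95 and 9.83. Bradi2g23250 had 0.05 and 0.06 TPM in cold, 0.55 and 1.80 TPM in drought and 0.12 and 0.16 TPM in submergence. Bradi2g02410 had 0.17 and 0 TPM in cold, 3.15 and 3.13 TPM in drought and 0 and 0.17 TPM in submergence, so among these libraries drought alone gave it more than 1 TPM beside heat.

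The 4 falls set apart in this way were of another kind, because 3 of them were above both controls in another stress. Bradi1g12130 had 1422 and 1632 TPM in cold, 29.1 and 73.1 TPM in drought and 18.7 and 310.3 TPM in submergence, and heat was below cold (log2 difference -9.74, adjusted p = 5.1e-04). Bradi4g07380 had 2661 and 3036 TPM in cold, 69.3 and 208 TPM in drought and 214 and 825 TPM in submergence, and heat was again below cold (log2 difference -6.25, adjusted p = 1.8e-04). Cold and heat thus lay on opposite sides of control at these genes. Bradi3g43870 had 70.1 and 42.6 TPM in cold, 12695 and 13074 TPM in drought and 45.5 and 61.5 TPM in submergence, with a heat minus drought difference of -13.43 on the log2 scale (adjusted p = 1.7e-07). Bradi5g00810 had 20.8 and 17.9 TPM in cold, 8.55 and 12.1 TPM in drought and 41.6 and 67.3 TPM in submergence.

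Annotated genes that rose in heat stood in different orders across the stresses. The heat shock factor gene Bradi1g05550 was at 8.71 and 8.26 TPM in cold, 20.4 and 20.6 TPM in drought and 12.3 and 10.4 TPM in submergence, and heat was higher than each (log2 differences 1.79, 0.56 and 1.87, adjusted p = 8.6e-05, 0.017 and 1.3e-04). The J protein Bradi1g20140 was at 4.74 and 9.03 TPM in cold, 11.5 and 11.7 TPM in drought and 15.6 and 20.9 TPM in submergence, below heat in each. The RNA-binding gene Bradi1g20360 was at 203 and 234 TPM in drought, and heat was lower than drought (log2 difference -2.47, adjusted p = 3.5e-06). The AN1 gene Bradi1g36050 was at 186 TPM in submergence replicate 1, with replicate 2 close to it, between control and heat (log2 difference 0.91, adjusted p = 0.037).

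The deposited table of predicted miRNA target sites gives each site a prominence level from PARE reads pooled by the authors. Level 1 means a read at the predicted cleavage position, and the level goes up by 1 for an abundance of at least 10 TP10M (the authors' depth-normalised PARE unit), for a rank of 1 or 2 among the reads of the transcript, and for a share of at least 20% of them. The share was read from the table, where a minimum of 20% gave the listed level at each of the 10725 entries with a read, and the study's text states a lower share. Each gene was given the highest level of its sites. Of 190 genes with a Level 3 or 4 site 146 were tested, and of these 6 rose and 19 fell in heat, which is 4.11% and 13.0% beside 8.21% and 8.7% of all genes. Most of the lower calls were at Level 4. Of 55 Level 4 genes 13 fell (23.6%) and 1 rose, with a median log2 fold change of -0.29, whereas of 91 Level 3 genes 6 fell (6.59%) and 5 rose, with a median of -0.03. The share that fell was 15.0% of 374 Level 2 genes, 9.72% of 6411 Level 1 genes and 6.99% of 4977 genes with a predicted site but no read there. The share that rose was 9.09%, 8.41% and 8.50% of the same classes. Of 11586 genes with no predicted site 8.62% fell and 7.99% rose. The classes also differed in level, with a median control TPM of 26.5 at Level 2, 18.6 at Level 1 and 4.4 without a read. It was 9.33 at Level 4 and 13.9 at Level 3. A change is easier to call at a higher level, so the shares are not like for like, and their link to level was not tested. The 25 calls at Levels 3 and 4 became 15 without heat replicate 1, 9 without heat replicate 2, 13 without control replicate 1 and 8 without control replicate 2. Of the 14 Level 4 calls, 8 remained without heat replicate 1, 5 without heat replicate 2, 10 without control replicate 1 and 5 without control replicate 2. With library size scaling 10 Level 4 genes fell and 4 rose, and at Levels 3 and 4 together 12 fell and 17 rose, so the lean of the wider list turned with the scaling.

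The sequences of the miRNAs whose sites lie in the genes described next are shown, as given in the deposited table, to make plain which families share a seed. Capitals mark the seed, bases 2 to 8 counted from the 5′ end.
miR172a-3p: aGAAUCUUgaugaugcugcau
miR172b: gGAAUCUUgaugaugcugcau
miR172d: aGAAUCCUgaugaugcugcag
miR319b-3p: uUGGACUGaagggugcucccu
miR528-5p: uGGAAGGGgcaugcagaggag
miR164a-5p: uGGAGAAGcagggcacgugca
miR169a-5p: cAGCCAAGgaugacuugccga
miR171a: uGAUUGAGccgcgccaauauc
miR396a-5p: uCCACAGGcuuucuugaacug
miR395c-3p: uGAAGUGUuugggggaacuc
Of these, miR172a-3p and miR172b share a seed, and miR172d differs from them within it although the 3 have sites in the same 5 genes.

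miR172, which restrains AP2-type regulators of flowering and the juvenile phase in plants, had 5 such genes, and all leaned down. Of its 5 genes with a Level 3 or 4 site 4 fell in heat and none rose, beside 8.7% and 8.21% of all genes tested. Their median log2 fold change was -1.06. Bradi2g37800 had 138 and 118 TPM in the control libraries and 41.2 and 50.4 TPM in the heat libraries (log2 fold change -1.59 ± 0.18 SE, adjusted p = 0.0010). Its site lies at bases 1608 to 1629 of the transcript, and the cleavage position 1620 held 66.7% of the transcript's PARE abundance in the authors' pooled value. Its heat libraries were less than 2-fold apart and far below the controls, and it was the only one of the 4 called with each library left out.

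Bradi5g24100 had 19.6 and 25.1 TPM in the control libraries and 11.9 and 6.38 TPM in the heat libraries (log2 fold change -1.47 ± 0.40 SE, adjusted p = 0.032), Bradi1g30337, an AP2-domain gene, went from 2.84 and 4.77 TPM to 2.12 and 1.90 TPM (log2 fold change -1.06 ± 0.32 SE, adjusted p = 0.047), and Bradi1g53650 went from 29.7 and 24.2 TPM to 20.9 and 16.3 TPM (log2 fold change -0.69 ± 0.19 SE, adjusted p = 0.032). The remaining gene, the AP2-domain gene Bradi1g03880, had 6.58 and 7.01 TPM in the control libraries and 5.70 and 4.88 TPM in the heat libraries and did not pass the test (log2 fold change -0.52, adjusted p = 0.22). In all 5 genes both heat libraries were below both controls in TPM, and over all genes tested the groups did not overlap at 65.9% in either direction. The calls left were 2 without heat replicate 1, 1 without heat replicate 2, 2 without control replicate 1 and 1 without control replicate 2. With library size scaling 1 of the 4 calls remained. Bradi2g37800 stood at 119 and 117 TPM in cold, 110.0 and 132 TPM in drought and 159.1 and 167.9 TPM in submergence, and heat was lower than each (log2 differences -1.73, -1.77 and -1.69, adjusted p = 9.9e-05, 2.4e-05 and 2.0e-04).

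miR319, a family known for TCP growth regulators in other plants, had 3 of 5 genes lower and none called higher, beside 8.7% and 8.21% of all genes tested. Bradi2g06890 had 37.0 and 36.7 TPM in the control libraries and 22.4 and 21.0 TPM in the heat libraries (log2 fold change -0.93 ± 0.15 SE, adjusted p = 0.0039), Bradi4g01547 went from 21.0 and 18.4 TPM to 13.7 and 11.4 TPM (log2 fold change -0.77, adjusted p = 0.018) and Bradi1g58450 went from 27.1 and 29.1 TPM to 20.7 and 17.9 TPM (log2 fold change -0.70, adjusted p = 0.0094). These sites held 16, 21 and 82 TP10M. The other 2, Bradi3g42240 and Bradi3g43205, had log2 fold changes of 0.73 and 2.13 (adjusted p = 0.067 and 0.18) and sites of only 2 and 1 TP10M. Bradi2g06890 was called with each library left out, Bradi1g58450 not without heat replicate 2 or control replicate 2, and Bradi4g01547 was not called without any 1 of the 4. None of the 5 genes of the related miR159 was called.

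**Figure D4:**
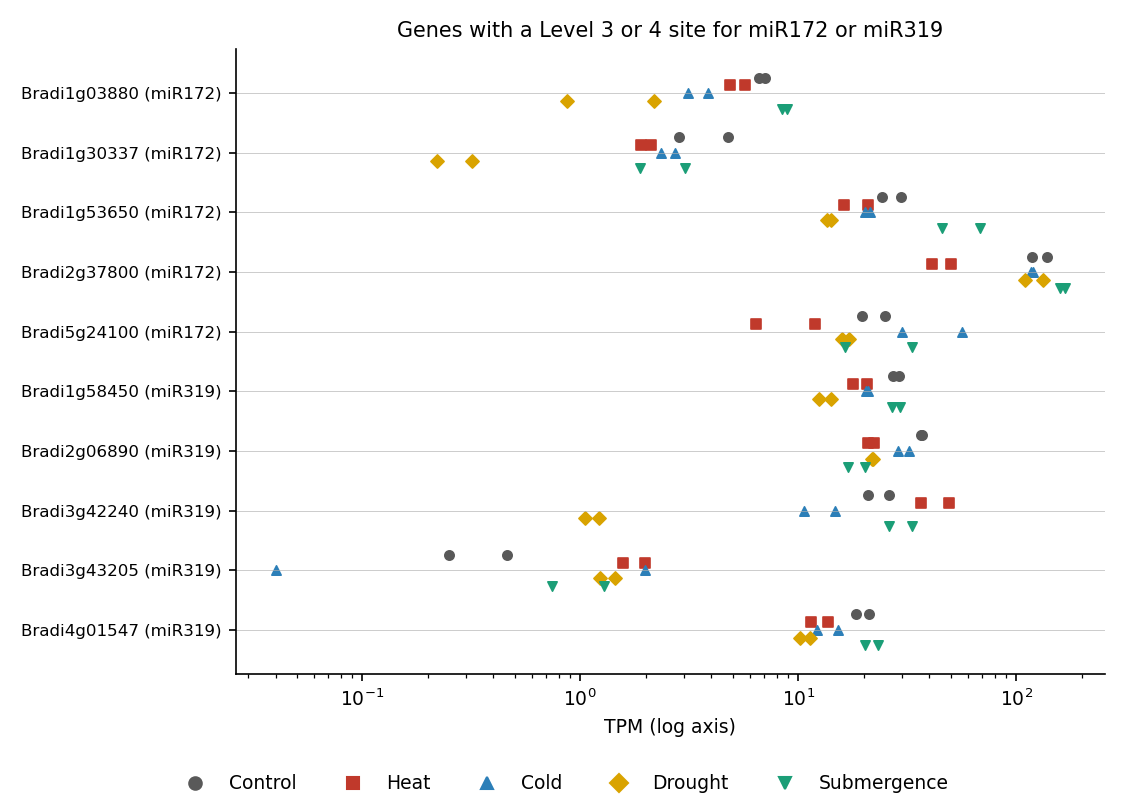
TPM (horizontal log axis) in each of the 10 RNA-seq libraries for the genes with a Level 3 or 4 site of miR172 or miR319, with 2 marks for each condition. Heat squares lie left of the control circles in all 5 miR172 genes, by the widest gap at Bradi2g37800 (from 138 and 118 TPM to 41.2 and 50.4 TPM), and in 3 of the 5 miR319 genes.

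Among the genes called with a Level 3 or 4 site, the largest change was a rise. Bradi1g37600, a multicopper oxidase, the fold of laccases and related copper enzymes, has a Level 4 site of miR528-5p with 366 TP10M at base 2053. It had 6.32 and 9.11 TPM in the control libraries and 266 and 150.4 TPM in the heat libraries (log2 fold change 4.58 ± 0.67 SE, adjusted p = 0.0029). The heat libraries were over 10-fold above the controls, and the call remained with each library left out, although the counts were not whole in 3 of the 4 libraries. It was at 2.97 and 14.9 TPM in cold, 10.9 and 27.2 TPM in drought and 0.39 and 0.52 TPM in submergence, and heat was higher than each (log2 differences 4.11, 3.05 and 8.89). Of the other 5 miR528 genes, Bradi1g59510 fell (from 25.4 and 33.5 TPM to 19.1 and 12.4 TPM, adjusted p = 0.023), and the plastocyanin-like gene Bradi1g24121, whose site has the highest abundance of the 6, 1416 TP10M, had a log2 fold change of 0.22 (adjusted p = 0.43). Bradi1g59510 lost its call without heat replicate 2 or control replicate 2. Among the other copper-linked families, Bradi2g54210, with a Level 3 site of miR398b, fell from 278 and 335 TPM to 247 and 203 TPM (adjusted p = 0.047, lost without each library).

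In other conserved families 1 or 2 genes were called. The genes called lower were 1 of 6 tested for miR164, 1 of 5 for miR167 and 2 of 8 for miR169. They were also 1 of 3 for miR171 (described with the study's genes), 1 of 4 for miR390 and 2 of 11 for miR396. None was called higher in these families, and over all genes tested 8.7% fell and 8.21% rose. The median log2 fold change of the miR169 genes was 0.28, and the uncalled genes of miR164 and miR167 lay on both sides of 0. Bradi4g02060 of miR164 went from 4.22 and 3.39 TPM to 1.52 and 1.28 TPM (log2 fold change -1.59 ± 0.22 SE, adjusted p = 0.0022) and Bradi3g57267 of miR396 went from 11.6 and 12.7 TPM to 5.86 and 5.13 TPM (log2 fold change -1.30 ± 0.18 SE, adjusted p = 0.0025), and both calls remained with each library left out. Bradi5g20607, also of miR396, went from 17.2 and 21.1 TPM to 10.7 and 11.8 TPM (adjusted p = 0.018). Of the 8 tested miR169 genes Bradi3g57320 fell (from 10.7 and 11.9 TPM to 5.26 and 5.55 TPM, adjusted p = 0.013) with Bradi1g11800 below. Bradi3g04920 of miR167 had a log2 fold change of -0.55 and Bradi5g24850 of miR390 one of -0.53 (adjusted p = 0.019 and 0.029). The calls of Bradi3g57320, Bradi3g04920 and Bradi5g24850 were lost without each library, and that of Bradi5g20607 without all but control replicate 1.

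The gene of miR395, the sulfate starvation miRNA of plants, rose. Bradi1g09030, with a PUA-like domain, had 57.0 and 55.5 TPM in the control libraries and 142 and 107 TPM in the heat libraries (log2 fold change 0.98 ± 0.18 SE, adjusted p = 0.0080), and it was also at 116 and 127 TPM in cold, 139 and 131 TPM in drought and 129.6 and 197 TPM in submergence. Its call was lost without heat replicate 1, control replicate 1 or control replicate 2. No gene was called among 9 of miR156, 7 of miR160 and 11 of miR166. Outside the conserved families 4 genes rose and 2 fell of 51 tested, beside 8.21% and 8.7% of all genes tested, so these counts do not exceed the shares over all genes. The rises were Bradi1g77820 (from 4.73 and 4.86 TPM to 92.9 and 37.4 TPM), Bradi3g48441 (from 1.95 and 1.18 TPM to 5.86 and 7.94 TPM), Bradi3g39630 (from 92.7 and 86.2 TPM to 397.1 and 305 TPM) and Bradi4g23360 (from 2.22 and 1.69 TPM to 4.15 and 4.79 TPM). The falls were Bradi1g14810 (from 20.9 and 22.1 TPM to 10.4 and 8.95 TPM) and Bradi3g18565 (from 2.54 and 3.20 TPM to 1.73 and 1.78 TPM). The calls of Bradi1g77820, Bradi3g39630 and Bradi1g14810 remained with each library left out, with a log2 fold change of 2.86 for Bradi1g77820 without heat replicate 1, against 3.57. Bradi3g48441 lost its call without heat replicate 2, control replicate 1 or control replicate 2, Bradi3g18565 without heat replicate 1, heat replicate 2 or control replicate 2, and Bradi4g23360 without each library.

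**Figure D5:**
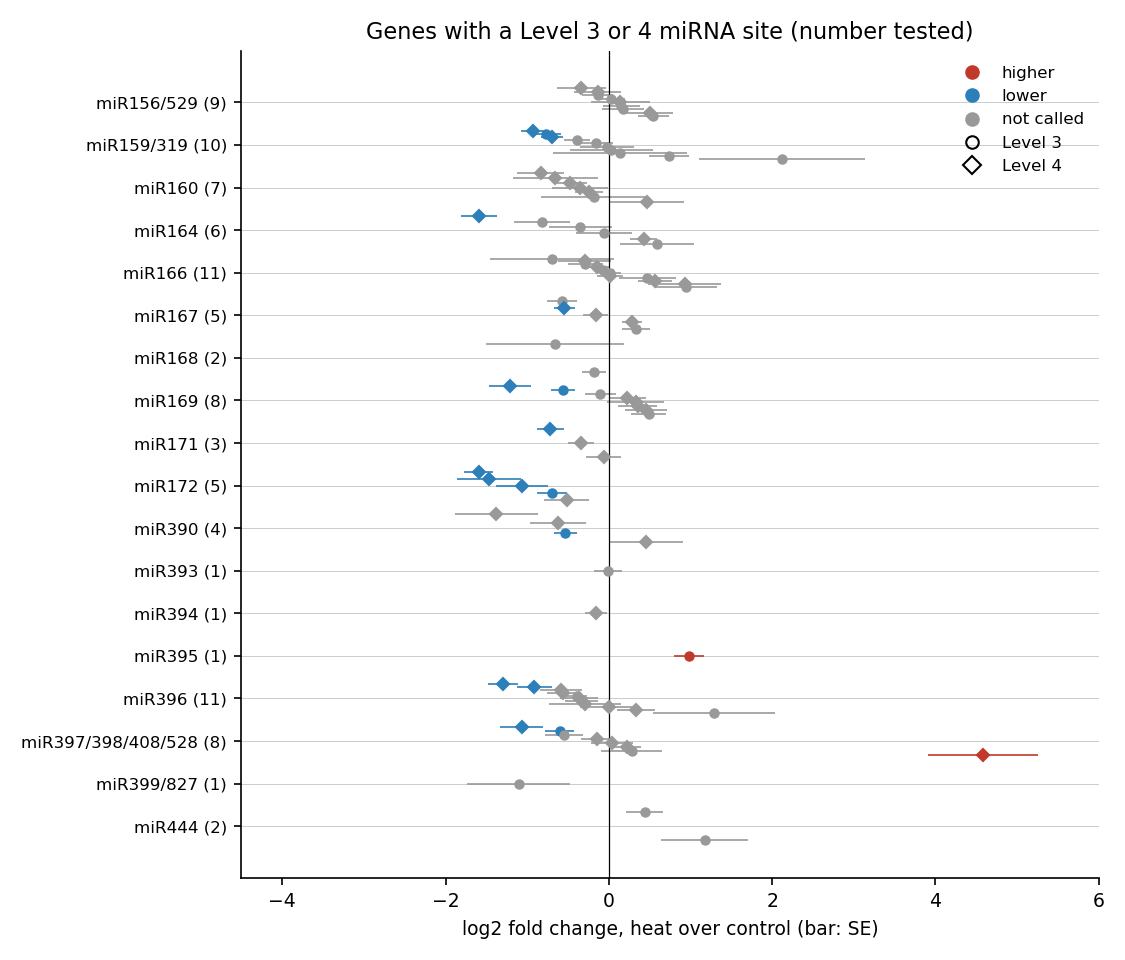
Log2 fold change of heat over control (horizontal axis, bars are SE) for each tested gene with a Level 3 (circles) or Level 4 (diamonds) site, by conserved miRNA family, with the number tested in brackets. Blue points passed the test downwards, red upwards and grey did not pass; 4 of the 5 miR172 genes are blue, and Bradi1g37600 of the miR528 group stands alone at 4.58.

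Of the 10 genes that the study named, 2 were called, beside 16.9% of all genes tested, and the 10 had log2 fold changes from -0.72 to 0.55. All but Bradi3g51077 come from the study's list of targets whose PARE and mRNA changes were opposite under cold, drought or submergence. That list holds no heat entry. Bradi1g11800, an NF-YA subunit of the CCAAT-binding factor with a miR169 site, had 45.1 and 37.4 TPM in the control libraries and 35.3 and 27.2 TPM in the heat libraries (log2 fold change -0.57 ± 0.15 SE, adjusted p = 0.028). Bradi3g50930, a GRAS gene with a miR171 site, had 24.3 and 25.0 TPM in the control libraries and 18.4 and 15.0 TPM in the heat libraries (log2 fold change -0.72 ± 0.16 SE, adjusted p = 0.017). The first lost its call without heat replicate 2, control replicate 1 or control replicate 2 and the second without each library.

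Bradi2g35720, the auxin receptor gene TIR1, had 32.5 and 29.6 TPM in the control libraries and 37.1 and 31.8 TPM in the heat libraries (log2 fold change -0.01, SE 0.17), which was the smallest difference of the 10, and it was higher in drought, at 117 and 154 TPM. Bradi2g59200 (LCR, an F-box gene) had 24.5 and 25.6 TPM in the control libraries and 25.4 and 24.6 TPM in the heat libraries, Bradi3g05510 (SPL11) had 19.3 and 16.6 TPM in the control libraries and 33.1 and 26.6 TPM in the heat libraries and Bradi3g51077 (AGO1a, the Argonaute that miR168 targets) had 5.83 and 5.69 TPM in the control libraries and 7.87 and 6.75 TPM in the heat libraries. Their adjusted p were 0.43, 0.071 and 0.38. SPL11 came closest to a call of these, with both heat libraries above both controls. Bradi3g52547 (GRF), Bradi5g08680 (TIR1-like), Bradi2g38552 and Bradi2g28153 had log2 fold changes of -0.37, -0.38, -0.63 and 0.44, with adjusted p of 0.30, 0.091, 0.24 and 0.20. Bradi3g52547 was at 30.7 and 25.2 TPM in cold and 32.0 and 27.0 TPM in submergence, against 9.28 and 9.10 TPM in heat, and heat was lower than both (log2 differences -2.02 and -1.60, adjusted p = 1.6e-04 and 7.9e-04).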

How the data were processed

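RNA-seq libraries were made by the authors with a ScriptSeq kit from above ground tissue, 2 biological replicates for each condition, and gene-level expected counts and TPM were deposited, one table for each library. The submitters' processing notes name STAR 2.5.3a, RSEM 1.2.31 and Bowtie 0.12.7. The strand setting of the counting is not given in the sources used here, so overlapping and antisense genes are uncertain, as are near-identical copies, since 14.2% to 15.7% of the expected counts in the control and heat libraries were not whole. The 10 libraries held from 9885357 to 17978729 expected counts. The deposited miRNA site table holds a score for each prediction, PARE abundances pooled by the authors and a fraction, the share of a transcript's PARE abundance at the site. Tables of the other 2 species were not used here.

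Expected counts were rounded to whole numbers, filtered with filterByExpr, scaled by TMM and tested with edgeR 4.0.16 (quasi-likelihood) in a fit of all 10 libraries that shared 1 estimate of the spread, in R 4.3.3. P-values were adjusted by Benjamini-Hochberg over all 23494 genes, and they measure only the spread between these samples. TPM was used for levels. The test was checked on simulated data. A gene was named if it was among the 10 largest rises or falls called, averaging 10 CPM or more and with no overlap between heat and control, among the 6 most abundant at least 2-fold rises or falls, among the 4 largest each way beyond all other stresses, named by the study, among the 3 largest called changes of a listed family, or called with a Level 3 or 4 miRNA site. Other named genes were chosen after their values were seen. The members and lists were chosen with earlier results of these data known. Alternatives were other scalings and filters, DESeq2 1.42.0, a fit of 4 libraries, a replicate block and leaving out each library.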

Additional observations from a re-analysis of the deposited data

How the results depend on the processing

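With library size scaling 3249 genes were higher in heat, against 1928. When changes under 1 on the log2 scale were dropped, 1006 genes were higher, 1007 lower, 13 were called with a Level 3 or 4 site and 8 in the annotated families, and heat differed from cold at 6045 genes and from submergence at 5178. Taking sites at Level 1 or above gave 1277 calls among 6931 genes tested and Level 4 alone 14 among 55, against 25 among 146. Of the genes at Level 1 or above 8.35% rose and 10.1% fell, beside 8.21% and 8.7% of all genes tested. The genes that rose at least 2-fold held 7.10% of the heat libraries in TPM and 5.75% in CPM. With 1 library left out, 297 to 967 genes were higher and 416 to 1025 lower, with 8 to 15 calls at Level 3 or 4 sites, 5 to 12 in the families, 6908 to 7098 against cold, 14048 to 14187 against drought and 6065 to 6275 against submergence. The replicate numbers did not pair control with heat (correlation of deviations -0.147). With a replicate block 1678 genes were higher and 1891 lower, with 25 Level 3 or 4 calls and 17 family calls, and 9420, 15659 and 8849 genes differed from cold, drought and submergence. With the heat numbers crossed, a fit chosen after seeing the data, 2111 were higher and 2243 lower. DESeq2 called 1650 higher and 2311 lower. Over all settings the named genes gave 1277 values on the same side of the threshold, 196 that lost the call and 2 that gained one, and none changed sign while called. Depth limits the genes with a few control counts, whose folds are bounds or wide ratios.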
